A study of Mus musculus with 14 samples.

Results

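The 7 genes described here encode the mouse receptors for the Fc part of immunoglobulin G (Fcgr1, Fcgr2b, Fcgr3 and Fcgr4), the signalling adaptors Fcer1g and Tyrobp, and the kinase Syk. They were chosen by symbol as parts of 1 signalling unit, not by a threshold on their levels, and all 7 were found among the 48795 genes of the deposited count table. RNA was sequenced from 14 libraries of unstimulated fibroblasts that had left explants onto tissue-culture plastic and were scraped off at day 14. The groups were Rel -/- dorsal skin (KO-mDF, libraries 18, 19 and 20), wild-type dorsal skin (WT-mDF, 11 and 22), Rel -/- lung (KO-mLF, 7, 8, 9 and 10) and wild-type lung (WT-mLF, 1, 3, 4, 5 and 23). All were labelled with the strain C57BL/6J, and the mice were 8 to 10 weeks old and described as male. Rel codes for c-Rel, one of the NF-kappaB transcription factors, and the study asked how its loss alters fibroblast expression in each tissue. The labels name no other allele or agent in either genotype, limit the loss of Rel to no cell type, describe no sorting of the cells that grew out, and name no animal of origin for any library. The p-values below therefore measure the spread between these libraries, which may be technical.

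Fc gamma receptors bind antibody-coated particles and are best known on macrophages, neutrophils and other leukocytes, where they drive phagocytosis and the release of mediators. In mice Fcgr1, Fcgr3 and Fcgr4 are activating receptors that signal through Fcer1g, the common gamma chain, whereas Fcgr2b carries its own inhibitory motif. Fcer1g and Tyrobp (also called DAP12) each carry an immunoreceptor tyrosine-based activation motif (ITAM), a pair of tyrosines that Src-family kinases phosphorylate and that Syk then binds through its tandem SH2 domains. Tyrobp pairs with receptors such as Trem2 and Clec5a rather than with Fc receptors.

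The coding sequence of these motifs is shown because it is what sorts the members into activating and inhibitory roles. In the GENCODE M21 annotation of GRCm38, the Fcer1g motif lies at chr1:171229889-171230072 on the minus strand across exons 4 and 5, and that of Tyrobp at chr7:30415670-30417382 on the plus strand, also across exons 4 and 5. Both adaptors had a single match of 45 bases, in 258 and 342 bases of coding sequence. The inhibitory motif (ITIM) of Fcgr2b lies in exon 8 at chr1:170961071-170961088 on the minus strand. Capitals mark the tyrosine codons and, in the ITAMs, the leucine codons of the signature.
Fcer1g ITAM: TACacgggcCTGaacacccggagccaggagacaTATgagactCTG
Tyrobp ITAM: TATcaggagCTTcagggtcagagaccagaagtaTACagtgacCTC
Fcgr2b ITIM: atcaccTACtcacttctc

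Fcgr2b and Fcgr3 were nearly identical over the part that encodes their antibody-binding domains, which matters for how their reads could be told apart. Over 509 aligned coding bases they were 96.5% identical, and 166 of 752 windows of 50 bases in the Fcgr3 coding sequence (22.1%) also occurred in Fcgr2b. No other pair of the 4 receptors shared a window of 50 bases, and their longest shared runs were 9 to 14 bases. The stretch around the longest shared run, 129 bases, is given here with 30 bases on each side (Fcgr2b chr1:170966644-170968111 and Fcgr3 chr1:171054137-171057822, both minus strand, exons 3 to 4), and capitals mark the 5 positions at which the genes differ.
Fcgr2b: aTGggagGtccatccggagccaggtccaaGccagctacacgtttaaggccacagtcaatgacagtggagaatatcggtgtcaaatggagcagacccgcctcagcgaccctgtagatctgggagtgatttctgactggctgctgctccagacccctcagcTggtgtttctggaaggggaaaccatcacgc
Fcgr3: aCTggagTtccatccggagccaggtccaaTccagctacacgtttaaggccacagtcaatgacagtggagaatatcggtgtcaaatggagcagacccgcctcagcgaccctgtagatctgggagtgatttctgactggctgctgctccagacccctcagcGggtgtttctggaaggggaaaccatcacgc
How reads that fall wholly inside this run were counted is not given in the sources used here, so the split between these 2 genes is less certain than their sum. Fcgr2b (chr1:170958617-170976547), Fcgr4 (chr1:171018920-171029761), Fcgr3 (chr1:171051174-171064935) and Fcer1g (chr1:171229572-171234365) are neighbours on chromosome 1, while Fcgr1 lies at chr3:96282909-96293969, Tyrobp at chr7:30413760-30417585 and Syk at chr13:52583173-52648792.

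Library totals ran from 12780350 to 30987933 counts, except 2663437 in WT-mDF 22, where 3 counts are worth 1.13 CPM (counts per 1000000 counts of the library). Rel itself read 0.0349, 9.42 and 9.47 CPM in KO-mDF 18, 19 and 20, against 11.5 and 10.9 CPM in WT-mDF 11 and 22. It ran from 0.0651 to 4.06 CPM in KO-mLF and from 1.10 to 17.3 CPM in WT-mLF. The libraries labelled KO-mDF 19 and 20 thus read Rel RNA near the level of wild-type skin. Rel RNA alone does not settle their genotype, and every direction drawn from KO-mDF below rests on the labels. In lung, WT-mLF 4 (1.10 CPM) read less Rel than KO-mLF 8, 9 and 10 (1.39 to 4.06 CPM), so the genotypes overlapped. KO-mLF 10 carries a treatment label that names skin although its title and source name lung. Xist, a non-coding RNA transcribed from an inactivated X, read 64.5 CPM in WT-mLF 1 and 732 CPM in WT-mDF 22, and at most 0.577 CPM elsewhere. Expressed genes at 0 counts made up 11.5% in KO-mLF 7, 8.22% in WT-mDF 11, 5.78% in WT-mLF 4 and 3.37% in KO-mDF 18, and at most 0.728% in the others. Fibroblast markers were abundant in every group, with 12 genes summing to 12948 to 28724 CPM in KO-mDF, 24056 to 49694 in WT-mDF, 26837 to 75429 in KO-mLF and 41235 to 145472 in WT-mLF.

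The members were abundant in lung cultures of both genotypes and much lower in skin cultures. Fcgr1 and Fcgr4 were near the counting floor in skin, as were Fcgr2b, Fcer1g and Tyrobp in WT-mDF. The 7 genes together summed to 18.3 to 43.5 CPM in KO-mDF, 8.78 to 14.3 in WT-mDF, 836 to 1546 in KO-mLF and 327 to 1264 in WT-mLF. All 7 members had lower CPM in every skin library than in every lung library of the same genotype, where 7.58% of the 16408 genes tested did so in Rel -/- cultures and 8.19% in wild type. Fcgr1 and Fcgr4 were among the genes tested only through their lung counts, which favours this order. These were bulk cultures, in which fewer cells of a type and less RNA per cell cannot be told apart.

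**Figure D1:**
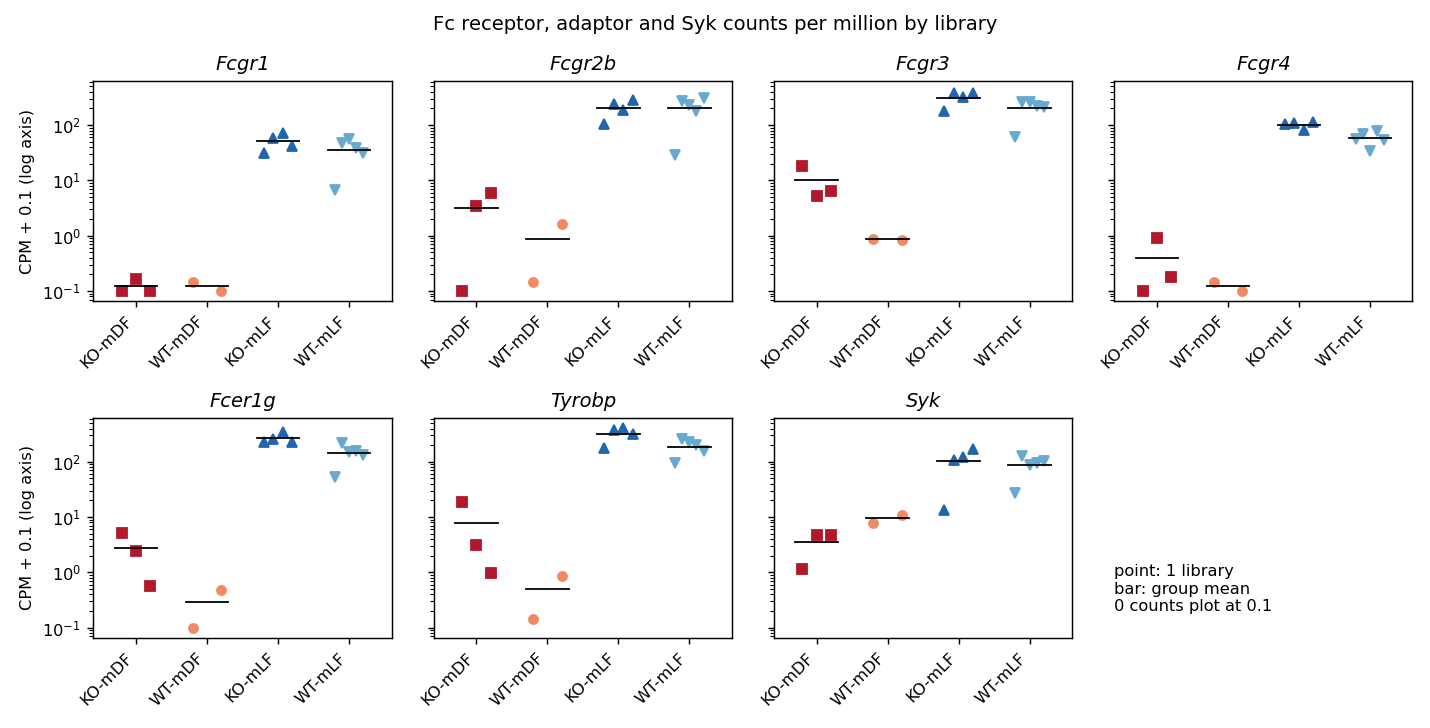
CPM plus 0.1 on a log axis for each member, with 1 point per library, bars at group means, and groups KO-mDF, WT-mDF, KO-mLF and WT-mLF from left to right. Each member is lower in every skin library than in every lung library of its genotype, and Syk keeps the highest level in wild-type skin, 7.83 and 10.9 CPM.

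Among the activating receptors, Fcgr1 encodes the high-affinity receptor for monomeric IgG. It read 0, 0.0637 and 0 CPM in KO-mDF 18, 19 and 20 and 0.0430 and 0 CPM in WT-mDF 11 and 22. In lung it read 31.5, 59.5, 73.0 and 42.5 CPM in KO-mLF 7, 8, 9 and 10, and 6.51, 48.2, 55.7, 38.4 and 31.4 CPM in WT-mLF 1, 3, 4, 5 and 23. The skin values rest on 1 count in each genotype, so Fcgr1 was not detectable above the floor there. Fcgr3, a low-affinity receptor for immune complexes, read 18.4, 5.09 and 6.34 CPM in KO-mDF and 0.775 and 0.751 CPM in WT-mDF. Its lung values were 179, 375, 319 and 384 CPM in KO-mLF, and 61.7, 264, 264, 218 and 215 CPM in WT-mLF. Fcgr3 was the receptor with the most counts in skin, 688 over KO-mDF and 20 over WT-mDF. Fcgr4, which binds mouse IgG2a and IgG2b, read 0, 0.828 and 0.0782 CPM in KO-mDF and 0.0430 and 0 CPM in WT-mDF. In lung it stood at 106, 107, 82.9 and 113 CPM in KO-mLF and at 55.9, 69.7, 34.1, 78.0 and 53.3 CPM in WT-mLF. The Fcgr4 values of the lung genotypes did not overlap.

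The inhibitory receptor Fcgr2b, which recruits the phosphatase SHIP1 (Inpp5d) when it is engaged together with an ITAM receptor, read 0, 3.37 and 5.95 CPM in KO-mDF and 0.0430 and 1.50 CPM in WT-mDF. In lung its values were 104, 241, 187 and 286 CPM in KO-mLF, and 28.9, 278, 228, 184 and 304 CPM in WT-mLF. Its lowest and highest lung values were both in wild type, in WT-mLF 1 and 23. KO-mDF 18 had no Fcgr2b count among 28686474, while the same library had the most Fcgr3 of the skin libraries. By counting error alone this allows up to 0.129 CPM of Fcgr2b (upper end of the 95% counting interval). The library was among those with the most expressed genes at 0 (3.37%), and it had 202 counts of C1qb but none of C1qa or C1qc. Its lack of Fcgr2b counts therefore sets no firm limit on the level.

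The adaptor Fcer1g read 5.09, 2.29 and 0.469 CPM in KO-mDF and 0 and 0.375 CPM in WT-mDF. In lung it stood at 226, 264, 349 and 227 CPM in KO-mLF and at 52.4, 222, 148, 156 and 130 CPM in WT-mLF. On CPM every KO-mLF library lay above every WT-mLF library, by little for KO-mLF 7 over WT-mLF 3. After the TMM scaling used in the test across genes, KO-mLF 7 (211) lay below WT-mLF 3 (237), so the genotypes overlapped. Tyrobp read 19.0, 2.99 and 0.861 CPM in KO-mDF, 0.0430 and 0.751 CPM in WT-mDF, 176, 369, 414 and 319 CPM in KO-mLF, and 95.0, 256, 226, 203 and 160 CPM in WT-mLF. Its lung genotypes overlapped. Syk, the kinase that reads both motifs, was counted in all skin libraries, as Fcgr3 and Tyrobp were. It read 1.05, 4.71 and 4.62 CPM in KO-mDF and 7.83 and 10.9 CPM in WT-mDF, from 163 and 211 pooled counts. Its lung values were 13.1, 106, 121 and 171 CPM in KO-mLF and 26.7, 126.5, 86.1, 93.7 and 104 CPM in WT-mLF, with KO-mLF 7 the lowest lung library for this gene alone.

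Levels of different genes were compared only per kilobase of annotated exon, over the 9 lung libraries. The adaptors came first, with Tyrobp at a median of 339 CPM per kb and Fcer1g at 254. They were followed by Fcgr3 at 152, Fcgr4 at 62.1, Fcgr2b at 39.4, Fcgr1 at 16.4 and Syk at 11.1. Tyrobp exceeded Fcer1g, Fcer1g exceeded Fcgr3, and Fcgr2b exceeded Fcgr1 in 9 of 9 libraries. Fcgr3 exceeded Fcgr4 in 8 libraries, Fcgr4 exceeded Fcgr2b in 7, and Fcgr1 exceeded Syk in 7, so these 3 pairs of neighbours were not in a fixed order. Both adaptors were thus more abundant per length than any single receptor in every lung library. The annotated exons of all transcripts were merged, 5790 bases for Fcgr2b and 9362 for Syk against 667 for Tyrobp, which lowers the per-length value of a gene whose long exons are little used.

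**Figure D2:**
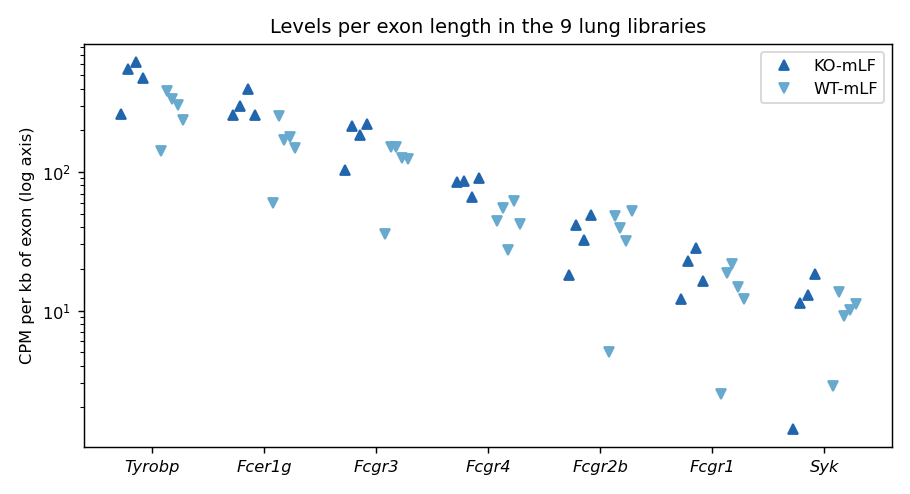
CPM per kb of exon on a log axis for each member in the lung libraries, KO-mLF to the left of WT-mLF within each gene, with genes ordered by their median. Tyrobp (median 339) and Fcer1g (254) are above all receptors, and Syk (11.1) is lowest.

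Between skin and lung, the question was whether the difference passed a test fitted across all genes. With edgeR's quasi-likelihood test and Benjamini-Hochberg adjustment, all 7 members were called lower in KO-mDF than in KO-mLF, where 3.23% of 16408 genes were called lower. Fcgr1 and Fcgr4 passed the low-count filter only through lung, so a lower call in skin was favoured in advance for them. The other 5 members were all called in Rel -/-, and all but Syk in wild type. Log2 fold changes with their standard errors were -11.15 ± 1.07 for Fcgr1 (adjusted p = 2.17e-05), -8.58 ± 0.92 for Fcgr4 (6.09e-05), -6.73 ± 0.76 for Fcer1g (8.72e-05) and -6.23 ± 1.21 for Fcgr2b (0.00540). Smaller differences were fitted for Tyrobp at -5.49 ± 0.88 (adjusted p = 0.00124), Fcgr3 at -5.10 ± 0.59 (9.64e-05) and Syk at -5.06 ± 0.83 (0.00149). In wild type, 6 of 7 members were called lower in WT-mDF than in WT-mLF, against 2.07% of all genes. These were Fcer1g at -11.57 ± 1.34 (adjusted p = 0.000244), Fcgr4 at -10.50 ± 1.39 (0.000599), Tyrobp at -10.41 ± 1.50 (0.00113), Fcgr1 at -9.76 ± 1.29 (0.000599), Fcgr2b at -9.51 ± 1.87 (0.00878) and Fcgr3 at -8.16 ± 0.87 (0.000145). Syk had the smallest wild-type difference, -3.42 ± 0.90, and missed the threshold with an adjusted p of 0.0530. The median over the members was -6.23 in Rel -/- and -9.76 in wild type.

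For members with 1 to 3 counts in a skin group the size of the difference is poorly known. Ratios of pooled counts are given with intervals for counting error alone, and pooling weights the deeper libraries. WT-mDF over WT-mLF was 0.00106 for Fcgr1 (95% counting interval 2.69e-05 to 0.00593), 0.000656 for Fcgr4 (1.66e-05 to 0.00366), 0.000266 for Fcer1g (6.72e-06 to 0.00148) and 0.000606 for Tyrobp (0.000125 to 0.00177). KO-mDF over KO-mLF was 0.000325 for Fcgr1 (8.23e-06 to 0.00181). The highest upper end of these was 0.00593 of the lung level. The intervals leave out the spread between libraries. In wild type the ratio of group means of CPM for Tyrobp was 0.00211, above its interval, while those of Fcgr1, Fcgr4 and Fcer1g lay within theirs. By contrast Syk in WT-mDF was 0.0925 of its WT-mLF level (0.0803 to 0.106). Fcgr1 and Fcgr4 entered the test only through lung, since the low-count filter applied to skin alone would have kept the other 5.

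The wild-type contrast leaned on single skin libraries, because WT-mDF has 2. Without WT-mDF 11 the fitted difference of Fcgr2b was -7.36 and no longer called (adjusted p = 0.139), and without WT-mDF 22 it was -12.08. Tyrobp stood at -8.26 and -11.98 under these settings, and Fcer1g at -8.84 without WT-mDF 11. Without KO-mDF 18 the Rel -/- difference of Tyrobp was -7.45 and that of Fcgr3 -5.88, and without KO-mDF 19 that of Fcgr4 was -11.75. Leaving out KO-mDF 19 and 20 leaves 1 library in KO-mDF. The Rel -/- differences were then -4.21 for Fcgr3, -5.81 for Fcer1g, -4.18 for Tyrobp and -6.74 for Syk. The other 3 members had no count in the remaining library, KO-mDF 18, so their fitted values are no measure of size. All 7 members were called in Rel -/- without KO-mLF 10 (-11.22 to -4.69). In wild type, 6 members were called without WT-mLF 1 and WT-mDF 22, at -8.33 for Fcgr3 and -12.14 for Tyrobp. Syk passed in wild type without WT-mLF 1 (adjusted p = 0.0375), KO-mLF 7 (0.00596) or KO-mDF 18 (0.0360).

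**Figure D3:**
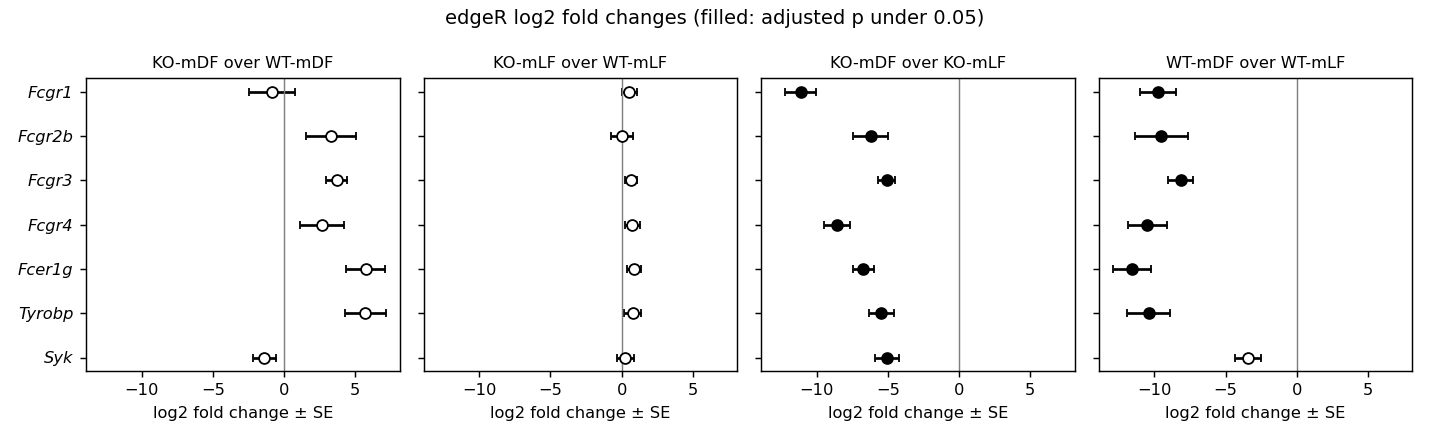
edgeR log2 fold changes with standard errors for each member in the contrasts KO-mDF over WT-mDF, KO-mLF over WT-mLF, KO-mDF over KO-mLF and WT-mDF over WT-mLF, filled where the adjusted p is under 0.05. All 7 members are filled in the Rel -/- tissue contrast, 6 in the wild-type one, and none between genotypes.

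The 24 macrophage and pan-leukocyte markers moved with the tissue in the same way. They summed to 183 to 251 CPM in KO-mDF, 164 to 208 in WT-mDF, 10284 to 32355 in KO-mLF and 6232 to 25446 in WT-mLF. Of the 24, 21 were called lower in KO-mDF than in KO-mLF (median log2 fold change -6.86) and 19 lower in WT-mDF than in WT-mLF (-8.50). Their part in the tissue difference of the members was not tested further than by a fit with the mean log2 CPM of these markers as a covariate, under which 0 of 7 members, and 0 of 16408 genes, were called in either genotype. This covariate separates the tissues by itself, at 1.73 or less in skin and 5.58 or more in lung, so the lost calls bear on no single gene. Under it the median fitted difference of the members was -4.63 in Rel -/- and -5.42 in wild type. Skin libraries listed at 0 the markers Aif1 in both genotypes and Cd52 and Cd163 in WT-mDF. Aif1 was thus tested only through lung, which favours a lower call in skin. B, T and NK cell markers summed to at most 6.42 CPM and mast cell and basophil markers to at most 15.2 CPM in any library. Neutrophil markers summed to 2.97 to 44.3 CPM in KO-mDF, 0.375 to 18.9 in WT-mDF, 10.7 to 35.2 in KO-mLF and 6.07 to 20.0 in WT-mLF, and Retnlg was at 0 in every group. Fcer1a, the alpha chain of the IgE receptor that also uses Fcer1g, had no count in any group.

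**Figure D4:**
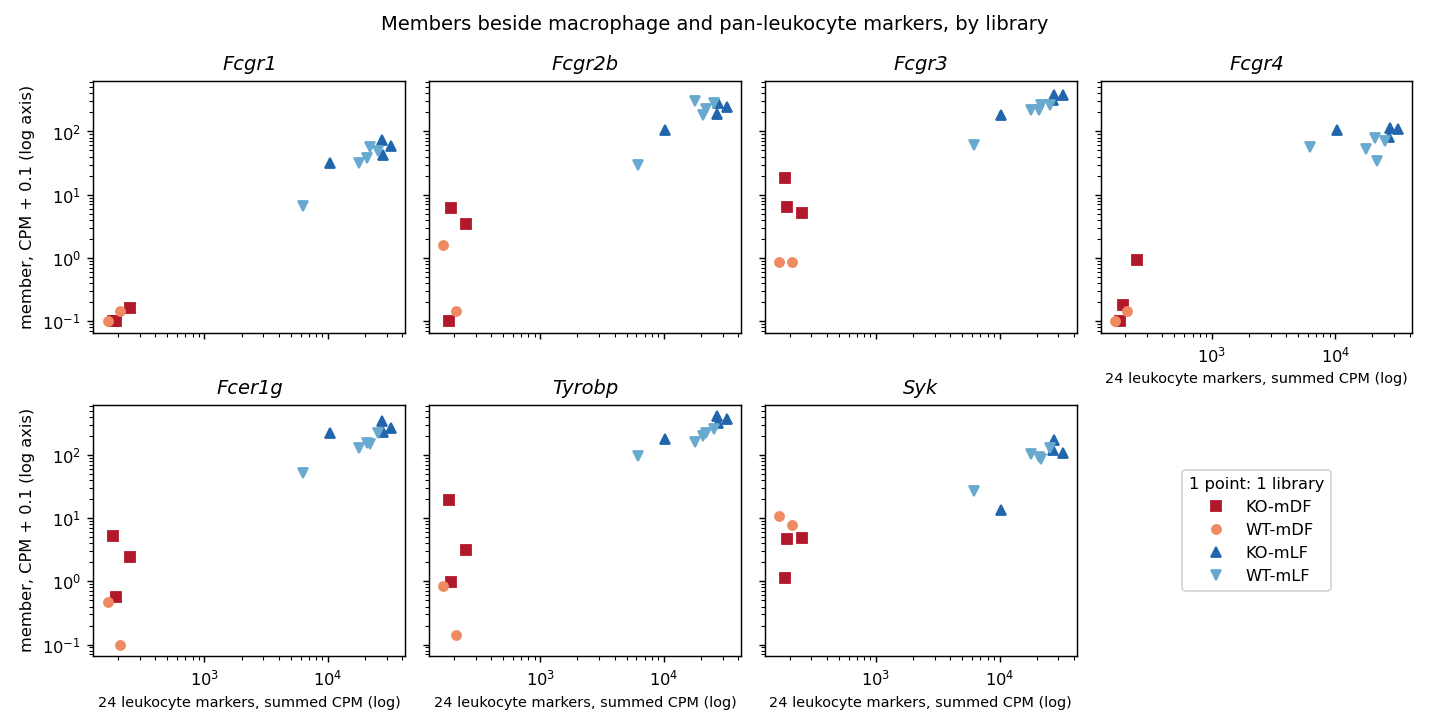
Member CPM plus 0.1 against the summed CPM of 24 macrophage and pan-leukocyte markers, both on log axes, with 1 point per library. Skin libraries lie at 164 to 251 summed CPM and lung libraries at 6232 to 32355. Within skin the points of Fcgr3, Fcer1g and Tyrobp spread upwards in KO-mDF at overlapping marker sums. The mean log2 CPM of the markers, which weights each marker alike, was -0.757 and 0.477 in WT-mDF 11 and 22. It was 0.257, 1.73 and 1.36 in KO-mDF 18, 19 and 20.

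Each member was also expressed relative to these markers, as its log2(CPM + 1) minus their mean in the same library, and compared with two-sided exact permutation tests. Skin values below the added 1 CPM are set by it on this scale, so tissue and skin comparisons are given for Syk alone, which exceeded 1 CPM in every library. The marker mean in skin is partly set by it as well. In WT-mDF 11 and KO-mDF 18 only 18 and 15 of the 24 markers had any count, and more read below 1 CPM. The skin values of Syk on this scale therefore give no size. Syk was at 1.74 ± 0.05 (SD, n = 2) relative to the markers in WT-mDF and at -1.25 ± 0.13 (n = 5) in WT-mLF. The difference of 2.99 had an exact p of 0.0476, the smallest that 21 splits allow. In KO-mDF against KO-mLF the difference of Syk was 1.61, with overlapping libraries (exact p = 0.0857). These belong to 28 such tests over members and contrasts, of which all but those between the lung genotypes were added after the data were seen.

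In lung, the comparison of genotypes asked whether loss of Rel altered the receptors in the cultures where they were abundant. No member passed the test, and neither did any of the 16408 genes (0%), although 1036 genes (6.31%) had an unadjusted p under 0.05. DESeq2 called 51 genes and limma-voom 6, with no member among them. All 7 members had fitted log2 fold changes above 0, with a median of 0.63 against -0.08 over all genes. The values were 0.90 ± 0.49 for Fcer1g (adjusted p = 0.805), 0.77 ± 0.60 for Tyrobp, 0.76 ± 0.53 for Fcgr4, 0.63 ± 0.41 for Fcgr3, 0.54 ± 0.52 for Fcgr1, 0.26 ± 0.58 for Syk and 0.03 ± 0.79 for Fcgr2b. The inhibitory receptor was therefore the member with the smallest fitted difference.

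Taken as single genes, Fcgr4 and Fcer1g separated the lung genotypes on CPM. After TMM scaling Fcer1g overlapped, with KO-mLF 7 (211) below WT-mLF 3 (237). Fcgr4 averaged 102 ± 13.3 CPM in KO-mLF (SD, n = 4) and 58.2 ± 16.8 CPM in WT-mLF (n = 5), and Fcer1g averaged 267 ± 57.8 CPM in KO-mLF and 142 ± 60.8 CPM in WT-mLF. For both, the two-sided exact permutation p was 0.0159, where the splits of 4 and 5 libraries allow no less than 0.00794. These were 2 of 28 such tests over members and contrasts. On CPM, 2 of 7 members had higher, non-overlapping values in KO-mLF, against 0.993% of all genes. Without KO-mLF 10, whose leukocyte markers summed to 27627 CPM against at most 251 CPM in skin, the fitted changes were 0.69 for Fcgr4 and 0.96 for Fcer1g. Without WT-mLF 1 they were 0.81 and 0.72, and without WT-mLF 4 0.63 and 0.91. Neither gene passed when adjusted over all genes, and their adjusted p over the alternatives ran from 0.395 to 1 for Fcgr4 and from 0.322 to 1 for Fcer1g. The other members overlapped, with exact p of 0.0873 for Tyrobp, 0.159 for Fcgr3, 0.325 for Fcgr1, 0.865 for Fcgr2b and 0.897 for Syk. The leukocyte markers stood beside this: 21 of 24 had fitted log2 fold changes above 0, with a median of 0.49 and none called. Relative to them, Fcer1g differed by 0.51 (exact p = 0.119), Fcgr4 by 0.33 (0.548) and Syk by -0.59 (0.151). The difference of Syk was -0.89 without KO-mLF 10 (exact p = 0.0179) and -0.18 without KO-mLF 7 (exact p = 0.446). That of Fcer1g was 0.19 without KO-mLF 7 (exact p = 0.339).

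The balance of activating to inhibitory receptors was taken as the counts of Fcgr1, Fcgr3 and Fcgr4 over those of Fcgr2b within a library, with 1 count added to each sum. It was 3.05, 2.25, 2.54 and 1.89 in KO-mLF 7, 8, 9 and 10. In WT-mLF 1, 3, 4, 5 and 23 it was 4.29, 1.38, 1.55, 1.82 and 0.987. All KO-mLF values lay above those of 4 wild-type libraries and below that of WT-mLF 1. The log2 difference of 0.45 was within the spread of the libraries (two-sided exact permutation p = 0.317). Without WT-mLF 1, a library with Xist and the lowest lung library for 5 of the 7 members, it was 0.78 with no overlap (exact p = 0.0286, the smallest that its splits allow). Fcgr3 over Fcgr2b showed the same order, at 1.72, 1.56, 1.71 and 1.34 in KO-mLF and 2.13, 0.952, 1.16, 1.19 and 0.708 in WT-mLF, with a log2 difference of 0.46 (exact p = 0.175). These 2 genes are the pair with shared sequence printed above. The ratio of Syk to Fcer1g was lower in KO-mLF by -1.12 on the log2 scale (exact p = 0.0794), with KO-mLF 7 at 0.0584 and the other KO-mLF libraries at 0.346 to 0.751, against 0.510 to 0.800 in WT-mLF. In all, 10 ratios and contrasts were tested in this way.

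**Figure D5:**
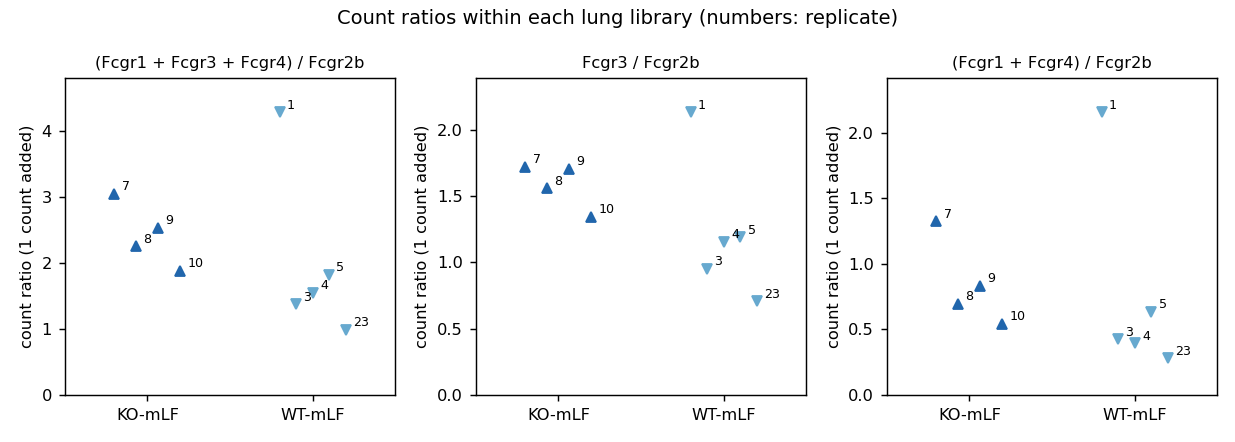
Count ratios of activating over inhibitory receptors, Fcgr3 over Fcgr2b, and Fcgr1 plus Fcgr4 over Fcgr2b in each lung library, KO-mLF left and WT-mLF right, with replicate numbers beside the points. WT-mLF 1 lies highest in all 3 panels (4.29 in the first), and the other 4 wild-type libraries lie below the KO-mLF libraries in the first 2.

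In skin, Fcgr3, Fcer1g and Tyrobp read higher in the 3 libraries labelled KO-mDF than in WT-mDF, and Syk read lower, with no call in the test across all genes. Of counts pooled over libraries, KO-mDF held 15.6 times the Fcgr3 of WT-mDF per library total (95% counting interval 10.0 to 25.7), 85.2 times the Fcer1g (15.1 to 3381) and 91.1 times the Tyrobp (31.01 to 443), where WT-mDF had 20, 1 and 3 counts. Pooling weights the deeper libraries, and ratios of the group means of CPM were 13.0 for Fcgr3, 13.9 for Fcer1g and 19.2 for Tyrobp. For Fcgr4, with 1 count in WT-mDF, the ratio was 6.34 (0.965 to 268). Fitted log2 fold changes were 5.73 ± 1.38 for Fcer1g (adjusted p = 0.359), 5.69 ± 1.43 for Tyrobp (0.399) and 3.69 ± 0.76 for Fcgr3 (0.216). Those of Fcgr2b and Syk were 3.31 ± 1.77 and -1.38 ± 0.82. No gene of 16408 was called (0%), and 1024 (6.24%) had an unadjusted p under 0.05. Of these, 599 (3.65% of the genes tested) were higher, among them Fcgr3, Fcer1g and Tyrobp. DESeq2 called 140 genes and limma-voom 300, and DESeq2 called these 3 members. Higher, non-overlapping values were seen for the same 3 members, where 13.7% of all genes had them, and Syk was lower without overlap, as were 11.5% of genes. With 3 against 2 libraries the exact permutation test cannot go below 0.1, which Fcgr3 and Syk reached. For Fcgr1 both genotypes had 1 count, so its fitted change of -0.85 ± 1.59 is no measure of size.

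The size of these skin differences depended on which library was read. Tyrobp in KO-mDF 20 was 0.861 CPM (95% counting interval 0.430 to 1.54), within the interval of 0.0909 to 2.71 CPM around the 0.751 CPM of WT-mDF 22. Fcer1g in KO-mDF 20, 0.469 CPM (0.172 to 1.02), was likewise within that of WT-mDF 22 (0.00951 to 2.09). For Fcgr3, the 6.34 CPM of KO-mDF 20 and the 5.09 CPM of KO-mDF 19 lay above the upper limits of both wild-type libraries, 1.22 and 2.71 CPM. KO-mDF 18, the Rel -/- skin library with 1 count of Rel, had the most Fcgr3, Fcer1g and Tyrobp and no count of Fcgr1, Fcgr2b or Fcgr4. It also had the highest neutrophil marker sum of all libraries, 44.3 CPM, with 6 of the 8 genes at 0. Its keratinocyte marker sum, 2449 CPM, was the highest of all libraries too. The part of these sums in the member values was not tested. Without KO-mDF 19 and 20 the fold changes were 4.58 for Fcgr3, 6.64 for Fcer1g and 6.96 for Tyrobp. That fit has 1 library in KO-mDF, which is assumed to vary like the other groups, so no p-value is given. Without KO-mDF 18 the fold changes were 2.92 for Fcgr3, 4.83 for Fcer1g and 3.74 for Tyrobp, none called. Without WT-mDF 22 Fcer1g was called (adjusted p = 0.0269), against a wild-type library with no Fcer1g count.

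The activating to inhibitory ratio in skin was 528, 1.76 and 1.08 in KO-mDF 18, 19 and 20, and 10.5 and 0.600 in WT-mDF 11 and 22. KO-mDF 18 had 0 counts of Fcgr2b, and WT-mDF 11 and 22 had 1 and 4, so the ratios of these libraries are no measure of size. The genotypes overlapped, with a log2 difference of 1.99 (two-sided exact permutation p = 0.8) and a difference below 0 without KO-mDF 18 (-0.87) or without WT-mDF 22 (-0.07).

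Other values moved with the skin genotype. Summed without Syk, the 6 other members read 42.5, 14.6 and 13.7 CPM in KO-mDF and 0.947 and 3.38 CPM in WT-mDF, whereas the summed leukocyte markers overlapped, at 183, 251 and 191 CPM against 208 and 164 CPM. Cd53 alone gave 58.0 and 84.1 CPM of the marker sums of WT-mDF 11 and 22, against 11.2 to 25.4 CPM in KO-mDF. Of the 24 markers, 17 had fitted log2 fold changes above 0 and 6 below, with a median of 1.05. Without overlap, 5 were higher in KO-mDF and 1 was lower, where 13.7% and 11.5% of all genes were, and none was called. Keratinocyte markers summed to 970 to 2449 CPM in KO-mDF and 29.3 to 34.6 CPM in WT-mDF, and their part in the differences of the members was not tested. Relative to the leukocyte markers, Syk was -0.23 ± 0.66 in KO-mDF (SD, n = 3) and 1.74 ± 0.05 in WT-mDF, without overlap (exact p = 0.1, the smallest possible). The marker mean in skin is partly set by the added 1 CPM, so these relative values give no size.

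Whether the genotype effect differed between skin and lung was tested as an interaction over all genes. No gene passed (0 of 16408, 0%), and 766 (4.67%) had an unadjusted p under 0.05, with 545 (3.32% of the genes tested) above 0, among them Fcgr3, Fcer1g and Tyrobp. DESeq2 called 99 genes and limma-voom 174. The interaction was 3.06 ± 0.84 for Fcgr3 (adjusted p = 0.678), 4.83 ± 1.52 for Fcer1g (0.933) and 4.93 ± 1.57 for Tyrobp (0.954). Without KO-mDF 19 and 20, which leaves 1 library in KO-mDF, the interaction of Tyrobp was 6.19.

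Some receptors that partner the adaptors were also called lower in skin. Genes of this and the following lists with almost no skin counts passed the low-count filter only through lung. That favoured a lower call for them and raises the counts of called genes. Of 16 receptors that pair with Tyrobp, 12 were tested, of which 6 were lower in KO-mDF than in KO-mLF and 5 lower in WT-mDF than in WT-mLF. Trem2, a lipid-sensing receptor of macrophages, averaged 14.6 ± 19.1 CPM in KO-mDF (n = 3) and 243 ± 89.3 CPM in KO-mLF (n = 4), a log2 fold change of -4.16 ± 0.99 (adjusted p = 0.0207). In wild type it averaged 0.939 ± 1.33 CPM in WT-mDF and 151 ± 70.7 CPM in WT-mLF (-8.89 ± 1.69, adjusted p = 0.00664). Cd300lb was lower in skin in both genotypes, at -5.69 ± 0.79 in Rel -/- and -3.43 ± 0.83 in wild type. Sirpb1c was called in both too, on 1 count in each skin group, with pooled ratios of 0.000391 (95% counting interval 9.90e-06 to 0.00218) for KO-mDF over KO-mLF and 0.00140 (3.56e-05 to 0.00783) for WT-mDF over WT-mLF. The list of receptors that pair with Fcer1g or carry their own single-tyrosine motif had 10 tested genes, 5 lower in Rel -/- skin and 2 in wild-type skin. It also held Clec2d, which is not established as either. Clec4n (Dectin-2), a fungal mannan receptor that signals through Fcer1g, was lower in both genotypes, at -4.14 ± 0.79 in Rel -/- and -5.93 ± 1.05 in wild type. Clec7a (Dectin-1), a beta-glucan receptor that recruits Syk through its own tail, was called lower in both and read 1.64 to 5.92 CPM in KO-mDF, 0 in both WT-mDF libraries, 30.4 to 89.3 CPM in KO-mLF and 53.8 to 166 CPM in WT-mLF.

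Most other Fc receptors were barely counted. Of 13 listed, 4 were tested and none was called in any comparison. The exception in level was Fcgrt, the neonatal Fc receptor, which recycles IgG and albumin inside many cell types and uses no ITAM. Fcgrt averaged 105 ± 43.8 CPM in KO-mDF, 111 ± 57.2 CPM in WT-mDF, 281 ± 38.9 CPM in KO-mLF and 212 ± 84.0 CPM in WT-mLF. Its tissue differences of -1.55 ± 0.45 in Rel -/- (adjusted p = 0.0595) and -1.13 ± 0.50 in wild type were not called. Of the adaptors of lymphocyte receptors and the Tyrobp relative Hcst, only Hcst (DAP10) was tested, and it had no count in skin.

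Downstream of the ITAM, of 31 tested kinases and scaffolds, 13 were lower in KO-mDF than in KO-mLF and 8 lower in WT-mDF than in WT-mLF. Btk, Vav1 and Pik3cg, signalling proteins of blood cells, were called lower in both. They passed the low-count filter only through lung, so a lower call in skin was favoured in advance. Vav1 stood at -8.07 ± 1.08 in Rel -/-, and in wild type its pooled ratio was 0.000741 (95% counting interval 1.88e-05 to 0.00413). Btk and Pik3cg had 1 and 2 counts in each skin group, with pooled ratios of 0.000612 (1.55e-05 to 0.00341) and 0.000646 (7.82e-05 to 0.00233) in Rel -/-. Lyn, a Src-family kinase that phosphorylates ITAMs and was named for that role after its values were seen, stood at -2.03 ± 0.48 and -2.39 ± 0.58, called in both, and averaged 25.8 ± 4.39 CPM in KO-mDF and 19.2 ± 15.3 CPM in WT-mDF. Of the 4 most abundant genes of the list, Grb2 and Prkcd were called lower in Rel -/- skin by smaller amounts, -1.26 ± 0.29 and -1.27 ± 0.34, and Src and Cbl were not called, at 1.24 ± 0.44 and -0.23 ± 0.38. Of 22 tested inhibitory receptors and phosphatases, 14 were lower in Rel -/- skin and 9 in wild-type skin. Ptpn6 (SHP-1) and Inpp5d (SHIP1), phosphatases recruited by inhibitory motifs, the second again named for its role, were called in both and stood at -8.45 ± 1.03 and -8.71 ± 1.20 in Rel -/-. In WT-mDF they had 3 and 1 counts, with pooled ratios to WT-mLF of 0.00180 (0.000372 to 0.00527) and 0.000633 (1.60e-05 to 0.00353). Their widely expressed relatives Ptpn11 and Inppl1 were not called, at 0.47 ± 0.23 and -0.12 ± 0.24 in Rel -/- and 0.14 ± 0.25 and 0.46 ± 0.26 in wild type. Among 13 C-type lectin receptors tested, 7 were lower in Rel -/- skin and 5 in wild-type skin. None of these lists had a called gene between genotypes in either tissue.

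The genes whose profile was most like that of the members were sought by Pearson r of log2(CPM + 1). Over all 14 libraries, the mean of the standardised members was nearest to Mpeg1 (r = 0.995), C5ar1, Cyth4, Nxpe5, Lrrc25 and Pirb (0.992). Over the 9 lung libraries, Nrros (0.986), C1qb, C1qa, Nxpe5 and C1qc (0.980) were among the nearest. For 6 single members the nearest genes were Nxpe5 for Fcgr1 (0.997), Ncf1 for Fcgr2b (0.990), Nrros for Fcgr3 (0.989), Selplg for Fcgr4 (0.991), Pygl for Fcer1g (0.989) and Cd53 for Syk (0.971). The libraries share the skin and lung split, which sets these values over all libraries. Among the members themselves, r over the 21 pairs had a median of 0.94 over all libraries and of 0.70 within lung, where it ran from -0.01 for Fcgr4 with Syk to 0.94 for Fcgr1 with Fcgr3. Fcgr4 was the member that shared least with the others in lung, with r of 0.10 with Fcgr2b and 0.56 at most, with Fcer1g.

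Because the members differed together between tissues, the 250 bases upstream of their starts were searched on both strands for GAGGAAGT, letters of the motif bound by PU.1 (Spi1), and for TTCNNNGAA, the spaced motif bound by STAT factors. RefSeq windows (GRCm38.p6) were matched for Fcgr1, Fcgr2b, Fcgr3, Fcgr4, Fcer1g and Syk. GAGGAAGT was found in Fcgr4, on the reverse strand 24 to 17 bases upstream of the start, and in 2.44% of 32851 promoters. TTCNNNGAA was found in Fcgr1, 109 to 101 bases upstream, and in 7.02% of promoters. Both excerpts run along the gene's own strand, chr1:171018862-171018925 for Fcgr4 (plus) and chr3:96294030-96294118 for Fcgr1 (minus), and capitals mark the match.
Fcgr4 upstream: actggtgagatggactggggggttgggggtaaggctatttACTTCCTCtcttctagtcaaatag
Fcgr1 upstream: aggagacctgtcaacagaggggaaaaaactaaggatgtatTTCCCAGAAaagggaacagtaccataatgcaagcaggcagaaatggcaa
The windows of the other 4 genes held neither string, which says nothing of other sites or of binding.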

How the data were processed

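The authors deposited read counts per Ensembl gene, whole numbers with a different total in each library. Upstream, per the submitters' processing notes, which give no roles, STAR 2.4.2a, Trimmomatic 0.33, FastQC 0.11.2 and the GRCm38 build are named. A directional kit is named in the labels. Not given in the sources used here are the annotation release, the counter, whether it used strand, and what it did with reads that match several genes. Gene IDs were matched to GENCODE M21 (48435 of 48795 found). CPM divide a count by the library total and multiply it by 1000000. Tests across genes used edgeR's quasi-likelihood method (version 4.0.16, R 4.3.3) on 4 group means over all 14 libraries, after TMM scaling and filterByExpr with a minimum count of 10 and a minimum total of 15. P-values had a Benjamini-Hochberg adjustment over 16408 genes at 0.05. All groups shared 1 estimate of spread because WT-mDF has 2 libraries. The fit was checked on simulated counts. Single values were compared with two-sided exact permutation tests of log2(CPM + 1) or of log2 ratios with 1 count added. Members relative to markers were compared in skin and between tissues only after the data were seen. Exact 95% intervals and the floor of 3 counts describe counting error and nothing else, because without molecular identifiers PCR copies count as separate reads.

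Members and lists were chosen with earlier results of these data known. All 7 members were named. Of each other list, the 4 genes with the highest mean CPM and up to 4 called genes per comparison with the smallest p could be named, and genes of like profile were the 1 or 2 nearest per member and the 6 nearest to their mean, of which 1 gene is not reported here. Listed genes found in no row of the table (Pira6, Lilrb4a and Lilr4b) were not used. Alternatives were DESeq2 1.42.0 without independent filtering, limma-voom (limma 3.58.1) with quality weights, RLE and upper-quartile factors, other filters, fits of the compared groups alone, a leukocyte covariate, other pseudocounts, and fits without single or named libraries.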

Additional observations from a re-analysis of the deposited data

Results flagged for a closer look

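Fcgr3 in WT-mLF 1, at 61.7 CPM, stood apart from the other wild-type lung libraries, which read 215 to 264 CPM. Its gap to the nearest of them was above the limit of Dixon's test for 5 samples. This was 1 of 16 groups tested, and chance marks about 1 in 20. The same library had the fewest summed leukocyte markers in lung (6232 CPM) and the most summed fibroblast markers (145472 CPM), and it read Xist. Their part in its low Fcgr3 was not tested.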

How the results depend on the processing

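No paired analysis was possible because replicate numbers are not shared between groups. Fits without KO-mDF 19 and 20, or without a WT-mDF library, leave 1 library in a skin group, so their calls rest on that library. Of the members' fold changes under the alternatives, 810 kept their direction and their side of the threshold, 20 passed newly, 15 no longer passed and 21 turned their direction. Members called between KO-mDF and WT-mDF, 0 as reported, numbered 3 with DESeq2, 3 with no low-count filter, 3 without KO-mDF 19 and 20, 2 without WT-mLF 1 and WT-mDF 22, and 0 to 1 with single libraries left out. For the interaction, 0 as reported, the count was 1 without KO-mDF 19 and 20. For WT-mDF against WT-mLF, 6 as reported, it was 0 with the leukocyte covariate, 2 with limma-voom and 5 to 7 with single libraries left out. For KO-mDF against KO-mLF, 7 as reported, it was 0 with that covariate and 7 with any single library left out.

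Directions turned as follows, with no such value called. Between lung genotypes Fcgr2b stood at -0.46 with the leukocyte covariate, -0.19 without KO-mLF 10, -0.07 without KO-mLF 8, -0.23 without WT-mLF 1 and -0.24 without WT-mLF 1 and WT-mDF 22, and Syk at -0.53 with the covariate and -0.11 without KO-mLF 10. Between skin genotypes Fcgr1 stood at 2.61 without the 4 libraries with most zeros (KO-mDF 18, WT-mDF 11, KO-mLF 7 and WT-mLF 4) and 1.91 without WT-mDF 11, Fcgr2b at -5.63 without KO-mDF 19 and 20, and Fcgr4 at -2.84 without them and -0.49 without KO-mDF 19. The interaction of Fcgr1 was 1.68 and 1.37 under the first 2 of these settings, that of Fcgr2b -5.68 and that of Fcgr4 -3.61 without KO-mDF 19 and 20, and that of Fcgr4 -1.25 without KO-mDF 19. The skin values of Fcgr1 rest on 1 count in each genotype and give no size. With the covariate, skin against lung was 0.96 for Fcgr2b and 4.71 for Syk in wild type, and 2.51 and 2.22 in Rel -/-. Relative to leukocyte markers, Fcgr4 between lung genotypes was -0.0786 without KO-mLF 7 and 0.726 without WT-mLF 1, the lowest and highest with single libraries left out. The corresponding highest or lowest fold changes were 0.26 for Fcgr2b and 0.63 for Syk in lung, both without KO-mLF 7, and -2.78 for Fcgr1 without KO-mDF 19 and 5.45 for Fcgr4 without WT-mDF 11 in skin. For the interaction they were -3.32 for Fcgr1 and 4.67 for Fcgr4 under the last 2 settings. The activating to inhibitory ratio between lung genotypes ran from 0.25 to 0.78 with single libraries left out, passing without WT-mLF 1. Between skin genotypes it was 1.99 as reported (exact p = 0.8), -1.50 without Fcgr3, and ran from -0.87 to 4.06 with single libraries left out, at -0.07 without WT-mDF 22. The cause of these changes was not tested.

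Genes called numbered 829 for KO-mDF against KO-mLF and 487 for WT-mDF against WT-mLF. They were 1729 and 1170 with DESeq2, 4501 and 661 with limma-voom, 0 and 0 with the covariate, 1044 and 782 with no low-count filter, 2171 and 858 without those 4 libraries, 409 and 406 without KO-mDF 19 and 20, 1088 and 1044 without WT-mLF 1 and WT-mDF 22, and 410 to 1323 and 258 to 1050 with single libraries left out. Between genotypes, 0 as reported, they reached 439 in skin, without WT-mLF 1 and WT-mDF 22, and 51 in lung, with DESeq2, and the interaction reached 370 without WT-mDF 22. Depth limits the skin values of Fcgr1 and Fcgr4, which rest on 1 to 14 pooled counts.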
